A study of Homo sapiens with 8 samples.

Results

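Re-expression of the retinoblastoma protein pRB was examined in vehicle-treated NCI-H82 cells, an established human line of small cell lung cancer. The comparison used 4 of the 8 RNA-seq libraries of the study, 2 labelled pRB+ and 2 labelled pRB- with no inhibitor, and 11693 of the 25337 genes in the deposited table. A gene entered when its FPKM (fragments per length of transcript and depth of library), rescaled between libraries, averaged at least 1 over the 8 libraries. The 2083 histone, small nucleolar, small Cajal body, small nuclear and microRNA genes (names starting HIST, SNORD, SNORA, SCARNA, RNU or MIR) were set aside. All cells carried pTripZ RB1, an RB1 transgene that doxycycline switches on. The pRB+ cells received doxycycline at 0.5 µg/mL for 96 h and the pRB- cells received none. The protocol gives DMSO as the vehicle for the last 48 h of the inhibitor experiment. The other 4 libraries are pRB+ and pRB- cells given 32 nM AZD2811, an Aurora B inhibitor, for those 48 h. They entered the fit and are set beside the control values where stated. No group without the transgene received doxycycline, so the effects of pRB and of doxycycline itself cannot be told apart. Whether the line is 1 clone is not stated.

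In its active form pRB binds E2F transcription factors at the promoters of genes for DNA replication and represses them. Cyclin-dependent kinases phosphorylate pRB and release it, and the cell enters S phase. Genes of mitosis are controlled mainly through the related DREAM and MuvB complexes, which bind a promoter element called CHR. Small cell lung cancer commonly lacks pRB, so that this brake on the cell cycle is missing.

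RB1 itself stood at 7.353 and 7.569 scaled FPKM in the pRB+ libraries, against 0.8718 and 0.8004 in the pRB- libraries. The groups were far apart, with means of 7.46 ± 0.153 in pRB+ and 0.836 ± 0.0505 in pRB- cells (SD, n = 2 each), 8.92-fold higher in pRB+ cells. RB1 rose by 2.2 ± 0.11 (SE) on the log2(scaled FPKM + 1) scale, which understates the change of low genes (limma, n = 2 per group, Benjamini-Hochberg adjusted p = 6.8e-05). With FPKM as deposited it stood at 2.04 and missed the threshold (limma, adjusted p = 0.192). The 4 control libraries thus matched the pRB part of their labels. Reads of the transgene and of the cell's own gene were not separated in the table.

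The markers fitted the labelled neuroendocrine cell type. Of 8 neuroendocrine markers 7 reached 1 scaled FPKM, with summed levels of 661 and 661 in pRB+ and 687 and 676 in pRB- libraries. NEUROD1, the factor that names one molecular subtype of this cancer, stood at 74.8 and 88.4 in pRB+ and at 109 and 102 in pRB- cells. The lung epithelial genes SFTPC and SCGB1A1 were listed at 0 in all control libraries, and tuft cell and fibroblast markers were all under 0.4. The summed non-neuroendocrine markers stood at 31.6 and 33.7 in pRB+ and at 49.5 and 39.2 in pRB- cells, most of it VIM, which encodes vimentin. The depth, read from the steps of low values, was 28100000 to 31400000 fragments in the control libraries. RNA without a poly(A) tail set pRB+ replicate 2 apart for some kinds of RNA. Summed SNORA genes stood at 1882 and 8904 in pRB+ and at 1873 and 1742 in pRB- libraries. Summed SNORD genes did not set it apart from pRB- replicate 1, with 7386 and 13905 in pRB+ and 12918 and 7765 in pRB- libraries. RMRP, a structured RNA of a ribonucleoprotein that processes RNA, stood at 21.9 and 5797 in pRB+ and at 21.2 and 48.3 in pRB- libraries, and the scaling factors were 1.33 and 0.77 in pRB+ and 1.29 and 1.32 in pRB- libraries. The blood gene HBB, at 4.91, was also highest in that library, against 0.239 or less in the other 3. Counts without this library are given beside some of the lists only, and counts of other lists changed without it as well. A fit with a term for libraries with RMRP above 1000 scaled FPKM gave 10 fork genes lower in place of 13. It gave 17 cholesterol genes lower in place of 18 and 24 nucleolar genes higher in place of 18. The medians of these lists were -0.14, -0.36 and 0.25 in place of -0.18, -0.42 and 0.21. Deoxynucleotide synthesis, recombination and cytoplasmic ribosomal protein genes had medians of -0.02, -0.06 and -0.02 with that term, in place of -0.11 each. Mitotic entry genes had -0.36 in place of -0.33.

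RB1 was the 1 gene of 11693 that passed the test over all genes, 0.00855% of those tested, and 0 genes fell at that threshold, while 2483 had an unadjusted p under 0.05. The next smallest adjusted p was 0.0588, and 554 genes lay under 0.1. The count changed with the libraries in the fit: leaving out pRB+ AZD2811 replicate 1 gave 211 genes, leaving out the second gave 205 and leaving out pRB+ control replicate 1 gave 2. It was 577 (248 higher, 329 lower) with only the 4 control libraries in the fit. To describe gene groups, a gene is counted below as higher or lower when its unadjusted limma p was under 0.05 and both pRB+ libraries lay on the same side of both pRB- libraries. By this looser rule 1197 genes were higher (10.2%) and 1282 lower (11%) in pRB+ cells. These shares are the background only for control counts from the fit of all 8 libraries. Counts from other fits and under AZD2811 have other background shares. The level pairs given for a gene are scaled FPKM in replicates 1 and 2, and the values at which a gene stands, or that follow it in parentheses, are log2 differences of pRB+ minus pRB- cells; replicate alone means a control replicate. Counts of 3 or fewer genes rest on single genes, and most of them changed when a control library was left out. In bulk RNA, fewer dividing cells and less RNA per cell cannot be told apart. With FPKM as deposited, without rescaling, the counts were 6 higher and 27 lower, and the median difference of all genes was -0.33 in place of -0.02. Without pRB+ control replicate 1 they were 482 and 656, and without pRB- control replicate 1 they were 588 and 554. Differences were mostly modest. From the 5th to the 95th percentile, genes ran between -0.37 and 0.38 on the log2 scale, and 21 genes reached 1 while 16 reached -1.

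**Figure D1:**
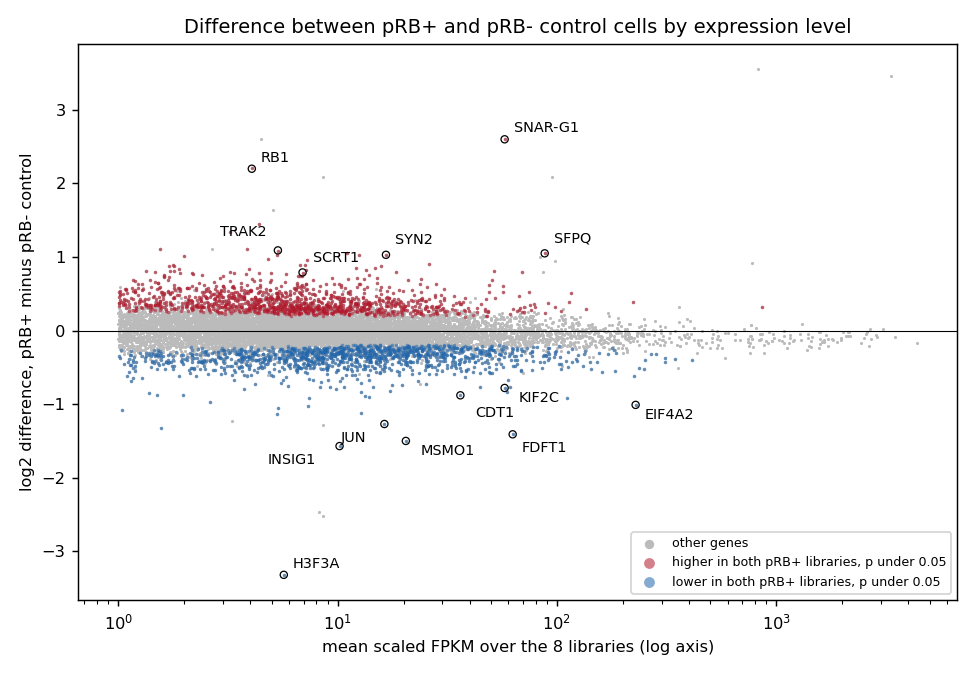
Each point is 1 of the 11693 tested genes: mean scaled FPKM over the 8 libraries (log axis) against the log2 difference of pRB+ minus pRB- control cells. Red and blue points met the looser rule, 1197 higher and 1282 lower; RB1 stands at 2.2, and the sterol genes INSIG1, MSMO1 and FDFT1 between -1.41 and -1.57.

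Among genes averaging at least 5 scaled FPKM, those higher in pRB+ cells with the smallest p encode proteins of several kinds. SCRT1, a neuronal transcriptional repressor, had 8.556 and 8.432 scaled FPKM in pRB+ libraries, against 4.465 and 4.532 in pRB- libraries. Replicates of SCRT1 nearly coincided, and its log2 difference was 0.79 ± 0.09 (SE; limma, adjusted p = 0.0588, n = 2 per group). SFPQ, a splicing factor of paraspeckles, had 127 and 95.63 in pRB+ against 51.56 and 54.03 in pRB- libraries, a log2 difference of 1.05. The other genes of this kind were UTP14A (0.85), YAE1D1 (1.06), TRAK2, an adaptor for mitochondrial transport (1.09), HP08942 (0.88), HOMEZ, a homeobox gene (1.02), REPS1, of endocytosis (0.89), POLR3C, a subunit of RNA polymerase III (0.82), MBTD1, a chromatin reader (1.03), GSG1 (0.65) and ZNF274, a zinc finger repressor (0.59). SYN2, which encodes the synaptic vesicle protein synapsin II, had 27.42 and 17.82 in pRB+ against 10.69 and 10.01 in pRB- libraries, a log2 difference of 1.03. SNAR-G1 had the largest value of the genes named by rule, 2.60, with 50.42 and 111.3 in pRB+ against 6.491 and 20.02 in pRB- libraries. It is 1 of a family of near-identical RNA genes, and its value is uncertain. Its levels were highest in the libraries with RMRP above 1000 scaled FPKM. These were pRB+ replicate 2 (111.3), pRB+ AZD2811 replicate 1 (104.3) and pRB- AZD2811 replicate 1 (89.24). Under AZD2811 the log2 difference of SNAR-G1 was -0.11. None of these genes passed the adjusted test.

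Of the genes averaging at least 5 scaled FPKM that were lower in pRB+ cells with the smallest p, many serve DNA replication, mitosis or sterol synthesis. They are described with their groups. Outside these groups, EIF4A2, a translation initiation helicase whose introns hold small nucleolar RNA genes, had 146.1 and 189.7 in pRB+ against 348.9 and 323.9 in pRB- libraries, a log2 difference of -1.01. JUN, an AP-1 transcription factor, was named for the size of its difference and not for its p. It had 7.668 and 11.33 in pRB+ against 30.85 and 18.57 in pRB- libraries, a log2 difference of -1.27. PANK4, of the pantothenate kinase family, stood at -0.60 and LIN7A, a synaptic scaffold gene, at -0.51. In each of the 4 genes both pRB+ libraries lay below both pRB- libraries, and none passed the adjusted test. H3F3A, a histone H3.3 gene with near-identical copies in the genome, was also named for the size of its difference. It was listed at 0.002915 and 0.004647 in pRB+ against 7.679 and 10.54 in pRB- libraries. Under AZD2811 it was at 0.005796 and 12.76 in pRB+ libraries, so that value is uncertain.

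The E2F family split by member. The activators E2F1 and E2F2 and the repressor E2F8, all known as E2F targets themselves, were lower in pRB+ cells, and E2F3 and E2F4 were higher. E2F1 had 27.84 and 24.38 scaled FPKM in pRB+ libraries, against 41.62 and 33.77 in pRB- libraries (log2 difference -0.51 ± 0.13, SE; limma, adjusted p = 0.0897, n = 2 per group). E2F2 had 11.1 and 10.47 in pRB+ against 16.83 and 15.11 in pRB- libraries (-0.52 ± 0.10, adjusted p = 0.0692). E2F8 had 1.377 and 1.433 in pRB+ against 2.744 and 2.601 in pRB- libraries (-0.61 ± 0.11, adjusted p = 0.0692). The pRB+ and pRB- libraries did not overlap in any of the 3 genes. E2F3, also an activator, had 24.55 and 21.27 in pRB+ against 14.42 and 16.55 in pRB- libraries, and E2F4, the main E2F of the DREAM complex, 26.21 and 22.55 in pRB+ against 17.93 and 18.3 in pRB- libraries; their log2 differences were 0.54 and 0.41. Of the 10 E2F and DP genes 4 were lower, E2F7 (-0.25) among them, and 2 higher; without pRB+ replicate 2 there were 4 higher and 3 lower. The other pocket proteins and the MuvB subunits stayed closer together: of the 10 genes of that list RB1 was the 1 counted higher and RBBP4, at -0.29, the 1 counted lower, and RBL1 (p107) had -0.19 and RBL2 (p130) -0.12.

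**Figure D2:**
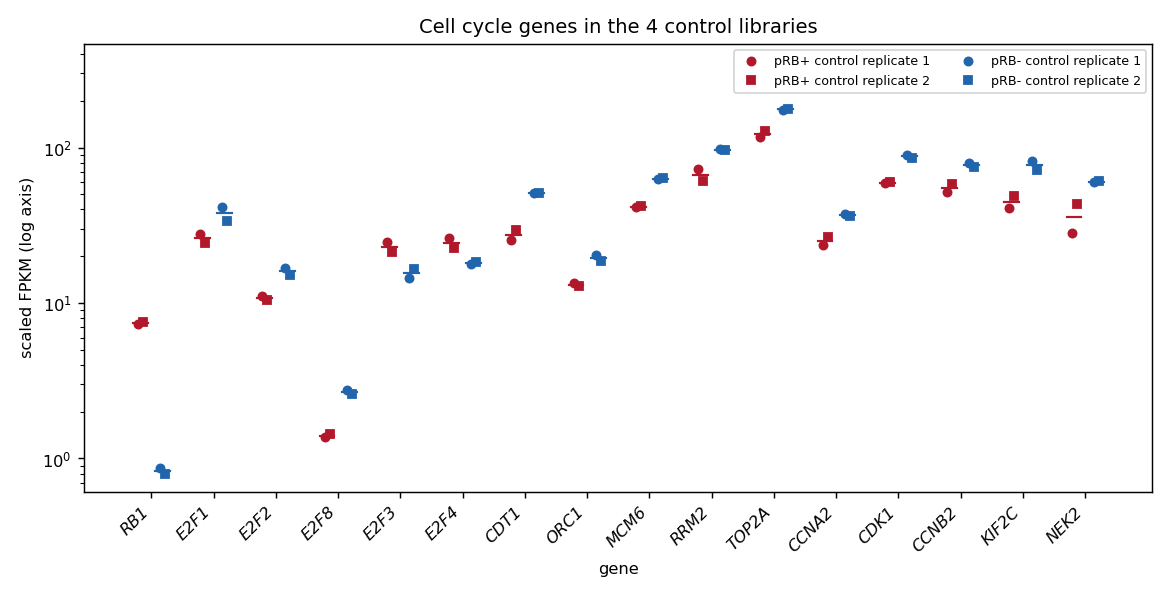
Scaled FPKM (log axis) of RB1 and 15 cell cycle genes in the 4 control libraries, pRB+ in red left of pRB- in blue; circles are replicate 1, squares replicate 2 and bars the group means. RB1, E2F3 and E2F4 are higher in both pRB+ libraries, and the other 13 genes are lower in both.

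Of the G1 regulators 16 of 18 were tested, with a median log2 difference of -0.14; 7 were counted lower and 0 higher. CDK2, the kinase of cyclins E and A, had 33.16 and 32.61 in pRB+ against 50.44 and 46.29 in pRB- libraries, a log2 difference of -0.54. CDKN2C, an inhibitor of CDK4 and CDK6 also called p18, stood at -0.52, CKS1B, a kinase adaptor, at -0.50, and CDKN1B, which encodes the inhibitor p27, at -0.32. The cyclin E genes overlapped between groups: CCNE1 had 9.443 and 7.282 in pRB+ and 7.998 and 8.858 in pRB- libraries, and CCNE2 had 8.124 and 7.202 in pRB+ and 7.393 and 8.744 in pRB- libraries. The inhibitor gene CDKN1A (p21) had 0.9861 and 1.281 in pRB+ and 1.632 and 1.139 in pRB- libraries. Without pRB- replicate 1 the count of 7 was 3.

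Of 28 tested genes that license and fire replication origins 12 were lower in pRB+ cells, and CDT1 had the largest difference, 46.3% lower by the means. CDT1, the licensing factor, had 25.25 and 29.59 scaled FPKM in pRB+ libraries, against 51.00 and 51.13 in pRB- libraries. The pRB- replicates of CDT1 nearly coincided, and its log2 difference was -0.88 ± 0.11 (SE; limma, adjusted p = 0.0692, n = 2 per group). Its p was the smallest on the lower side among genes averaging at least 5 scaled FPKM with groups apart, placeholder names skipped. ORC1, the largest subunit of the origin recognition complex, had 13.47 and 12.81 in pRB+ against 20.26 and 18.5 in pRB- libraries (-0.53 ± 0.09, adjusted p = 0.0692). MCM6, a helicase subunit, had 41.27 and 42.24 in pRB+ against 62.45 and 63.36 in pRB- libraries (-0.58 ± 0.12, adjusted p = 0.0706), and MCM2 stood at -0.34. All 6 subunits of the helicase ring, MCM2 to MCM7, were counted lower, with MCM3 at the small end, -0.23. Over the 28 genes the median was -0.18, and 0 were higher. Without pRB+ replicate 2 or without pRB- replicate 2 there were 7. CDC6, which loads the helicase with CDT1, did not meet the rule (-0.15), nor did the geminin gene GMNN (-0.26), which inhibits CDT1.

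At the fork itself the differences were similar in size: the 34 genes had a median of -0.18, with 13 lower and 0 higher. TOP2A, the topoisomerase that untangles replicated DNA, had 116.7 and 127.4 in pRB+ against 174.9 and 176.9 in pRB- libraries, a log2 difference of -0.52. POLD3, a subunit of DNA polymerase delta, stood at -0.45, the clamp loader subunits RFC2 and RFC5 at -0.41 and -0.38, and RFC4 at -0.40. PCNA, the sliding clamp, had 131.3 and 122.3 in pRB+ against 153.8 and 154.2 in pRB- libraries, a log2 difference of -0.28. Of the 14 genes for deoxynucleotide supply 5 were lower, with a median of -0.11. RRM2, the regulated subunit of ribonucleotide reductase, had 72.37 and 61.25 in pRB+ against 97.54 and 95.96 in pRB- libraries (-0.53), and RRM1 stood at -0.45, TK1 (thymidine kinase) at -0.43 and DCK at -0.28. TYMS, thymidylate synthase, had a log2 difference of -0.19 and did not meet the rule. Without pRB- replicate 2 the 5 were 3, and without pRB+ replicate 2 there were 2 fork genes higher.

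E2F1, E2F2 and CDT1 are shown here with the letters of their promoters, as 3 of the genes above whose window holds the E2F motif close to the start. The E2F motif was searched as TTTCCCGC, TTTCGCGC, TTTGGCGC and TTTGCCGC on both strands in the 250 bases before each RefSeq start (GRCh38.p14), a window that 9431 of the 11693 genes have. It lay in 4.72% of these windows, in 4 of 8 E2F and DP genes, in 6 of 23 licensing genes (26.1%) and in 7 of 30 fork genes (23.3%). In the other lists of this phase it lay in 1 of 12 deoxynucleotide synthesis genes (8.33%) and in 1 of 13 G1 regulators (7.69%). Among all genes counted lower it lay in 6.35%, and among those counted higher in 4.49%. A match is a description of letters and not a shown binding site. The stretches end at the base before the start and come from chr16:88803714-88803788 (plus strand) for CDT1, chr20:33686386-33686458 (minus strand) for E2F1 and chr1:23531234-23531315 (minus strand) for E2F2; capitals mark the motif, 5′ to 3′ along the gene.

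CDT1: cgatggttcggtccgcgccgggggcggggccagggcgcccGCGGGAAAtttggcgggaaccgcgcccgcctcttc

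E2F1: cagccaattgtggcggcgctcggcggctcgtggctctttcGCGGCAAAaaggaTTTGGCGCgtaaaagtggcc

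E2F2: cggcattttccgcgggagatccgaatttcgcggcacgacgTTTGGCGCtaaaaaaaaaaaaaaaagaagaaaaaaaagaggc

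Genes of mitotic entry gave the most uniform group of the cell cycle. All 36 tested genes of the list had log2 differences below 0, from -0.55 to -0.07, with a median of -0.33, and 24 were counted lower (66.7%) and 0 higher. CCNA2, cyclin A2, had 23.61 and 26.58 scaled FPKM in pRB+ libraries, against 37.64 and 36.32 in pRB- libraries (-0.54 ± 0.09, SE; limma, adjusted p = 0.0692, n = 2 per group). CDK1, the mitotic kinase, had 59.06 and 59.93 in pRB+ against 89.8 and 85.83 in pRB- libraries (-0.55 ± 0.11, adjusted p = 0.0711). CCNB2, cyclin B2, had 52 and 58.12 in pRB+ against 79.76 and 75.1 in pRB- libraries (-0.49 ± 0.09, adjusted p = 0.0692). For each gene the pRB+ replicates lay closer to each other than to either pRB- replicate. NUSAP1, a spindle protein, stood at -0.53, CDC25C, the phosphatase that activates CDK1, at -0.48, and TPX2, the activator of Aurora A, at -0.45. AURKA, Aurora A, had 34.8 and 35.78 in pRB+ against 47.84 and 44.53 in pRB- libraries (-0.38), and PLK1, a kinase of mitotic entry, 61.63 and 64.25 in pRB+ against 82.63 and 76.8 in pRB- libraries (-0.34). The proliferation marker MKI67 overlapped between groups, with 14.03 and 17.85 in pRB+ and 17.81 and 22.44 in pRB- libraries, and FOXM1, a transcription factor of these genes, stood at -0.23. The count was 24 without pRB+ replicate 2 and 18 without pRB- replicate 1.

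Promoters of 3 of these genes are shown because they hold the CHR element, searched as TTTGAA and TTCGAA on both strands in the same windows. CHR letters lay in 9.12% of all windows and in 16 of 27 mitotic entry genes (59.3%). They lay in 8 of 12 cytokinesis genes (66.7%) and in 6 of 13 kinesin genes (46.2%). Shares were lower in passenger complex and checkpoint genes (5 of 16, 31.2%) and in condensin and cohesin genes (6 of 18, 33.3%). In centromere and kinetochore genes they lay in 4 of 22 (18.2%). Among all genes counted lower the share was 12.2%, and among those counted higher 9.09%. The E2F motif lay in 1 of the 27 mitotic entry windows (3.70%) and CHR letters in 1 of the 23 licensing windows (4.35%). Other lists did not divide this way. The E2F motif lay in 4 of 22 centromere and kinetochore windows (18.2%) and in 3 of 18 condensin and cohesin windows (16.7%). Each motif lay in 5 of 23 windows of chromatin factors known as E2F targets (21.7%). CHR letters lay in 7 of 23 APC/C and SCF windows (30.4%) and in 7 of 41 windows of nucleolar ribosome assembly (17.1%). The stretches come from chr15:59105077-59105145 (plus strand) for CCNB2, chr16:23678820-23678888 (plus strand) for PLK1 and chr1:43358763-43358961 (plus strand) for CDC20 (RefSeq, GRCh38.p14), the last of which holds a match on each strand; capitals mark CHR letters.

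CCNB2: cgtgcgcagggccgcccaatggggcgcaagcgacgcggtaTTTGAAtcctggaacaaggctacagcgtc

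PLK1: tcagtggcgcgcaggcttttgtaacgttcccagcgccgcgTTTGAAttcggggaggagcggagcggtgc

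CDC20: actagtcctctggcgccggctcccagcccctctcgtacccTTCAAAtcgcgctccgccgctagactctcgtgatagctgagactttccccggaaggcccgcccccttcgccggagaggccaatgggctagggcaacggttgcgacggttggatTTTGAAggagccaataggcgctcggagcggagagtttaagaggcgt

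In 2 further lists of division genes, 6 of 13 tested mitotic kinesins and 8 of 13 members of the cytokinesis list were lower. KIF2C, a kinesin that removes tubulin at kinetochores, had 40.9 and 48.64 in pRB+ against 82.42 and 72.16 in pRB- libraries (-0.78 ± 0.12, SE; limma, adjusted p = 0.0692, n = 2 per group). NEK2, a kinase of centrosome separation, had 28.16 and 43.27 in pRB+ against 59.72 and 60.76 in pRB- libraries (-0.77 ± 0.18, adjusted p = 0.0811). The replicates of NEK2 differed more in pRB+ than in pRB- cells, though the groups did not overlap. The kinesins had a median of -0.24; KIF20A stood at -0.52, and KIF20B, at 0.24, was the 1 above 0. The cytokinesis genes had a median of -0.26; PRC1, which bundles midzone microtubules, and RACGAP1, of the centralspindlin complex, stood at -0.42 and -0.43. Without pRB+ replicate 1 the kinesin count was 3 and the cytokinesis count 5.

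Of 21 genes of the chromosomal passenger complex and the spindle checkpoint 10 were lower and 1 higher, with a median of -0.21. AURKB, which encodes Aurora B, the target of AZD2811, had 86.85 and 94.13 in pRB+ against 132.7 and 117.3 in pRB- libraries, a log2 difference of -0.46. Its partners CDCA8 (borealin), INCENP and BIRC5 (survivin) stood at -0.33, -0.35 and -0.38, and MAD2L2, a polymerase zeta subunit related to a checkpoint gene, at -0.53. The gene counted higher was SKA3, of a complex that couples kinetochores to microtubules, with 8.093 and 6.875 in pRB+ against 4.365 and 5.115 in pRB- libraries (0.56). Of 28 centromere and kinetochore genes 15 were lower and 0 higher, with a median of -0.27. CENPA, the centromeric histone, had 17.15 and 20.05 in pRB+ against 27.79 and 25.48 in pRB- libraries (-0.50), its loader HJURP stood at -0.50, PMF1, of the MIS12 complex, at -0.50, and CENPH at -0.42. That count was 8 without pRB+ replicate 1 or pRB- replicate 1 and 9 without pRB+ replicate 2. Among 22 condensin and cohesin genes 6 were lower and 2 higher. PTTG1, securin, had 116.8 and 156.6 in pRB+ against 207.2 and 192.1 in pRB- libraries (-0.56), RAD21 stood at -0.48 and NCAPD2 at -0.40, while the cohesin acetylase gene ESCO2 stood at 0.48 and the cohesin release gene WAPAL at 0.35. The 2 higher were 0 without pRB+ replicate 1 or pRB- replicate 1.

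Repair and chromatin genes that accompany replication showed the same direction in part. RAD54L, a motor of homologous recombination, had 23.67 and 23.32 in pRB+ against 37.25 and 34.38 in pRB- libraries (-0.59 ± 0.09, SE; limma, adjusted p = 0.0692, n = 2 per group), and FANCA, of the Fanconi anaemia core complex, stood at -0.59. Of 31 tested recombination and Fanconi genes 9 were lower and 0 higher, with a median of -0.11, and without pRB+ replicate 2 or pRB- replicate 2 there were 2 higher. Of 21 checkpoint genes 7 were lower, CHEK1 (-0.49) and PARP2 (-0.47) among them, and 2 higher, TP53BP1 (0.45) and ATRIP (0.27). The 7 were 4 without either pRB+ replicate and 2 without pRB- replicate 1. ATAD2, a chromatin ATPase, had 31.94 and 33.4 in pRB+ against 46.12 and 50.09 in pRB- libraries, a log2 difference of -0.54. HMGB2, an abundant chromatin protein, had 166.2 and 211.3 in pRB+ against 307.7 and 267.4 in pRB- libraries (-0.61), and MELK stood at -0.35. Of 25 chromatin factors known as E2F targets 12 were lower and 0 higher, with a median of -0.23; the count was 5 without pRB+ replicate 2 or pRB- replicate 1 and 7 without pRB- replicate 2.

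**Figure D3:**
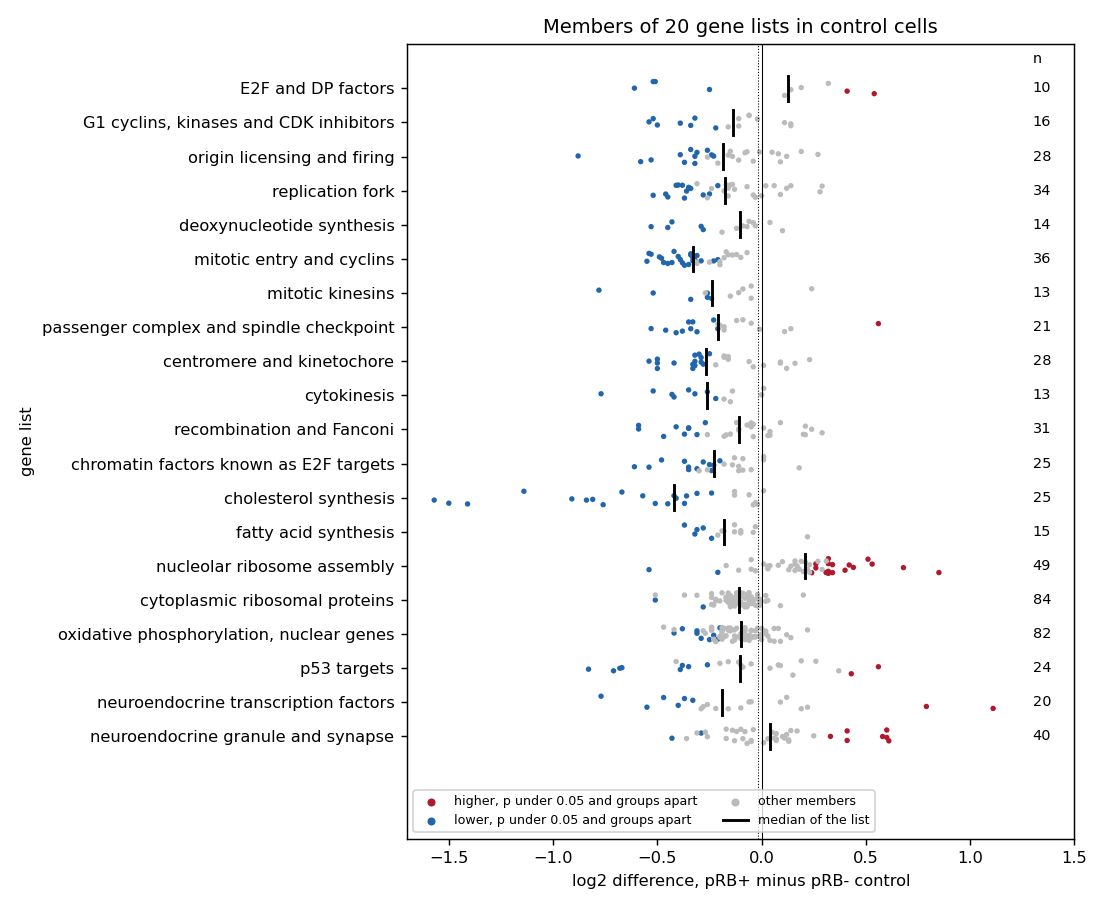
Log2 difference of pRB+ minus pRB- control cells for the tested members of 20 gene lists; each point is 1 gene, coloured where it met the looser rule, black bars are list medians, n is the number of members and the dotted line is the median of all genes (-0.02). The mitotic entry list lies wholly below 0, cholesterol synthesis reaches lowest, and nucleolar assembly has its median at 0.21.

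Cholesterol synthesis genes had the lowest median difference of the 38 lists tested, though not in every fit. Without pRB+ replicate 2 the interferon list of 9 genes had -0.50 and the cholesterol list -0.46, and with the term for libraries high in RMRP the cholesterol and mitotic entry lists both had -0.36. Cells sense membrane cholesterol through the SREBP2 pathway, in which SCAP carries the factor and INSIG1 holds it back, and SREBP2 switches on the enzymes and INSIG1 itself. Of 25 tested genes 18 were lower in pRB+ cells (72.0%) and 0 higher, with a median of -0.42, and 24 lay below 0. INSIG1 had 4.156 and 7.198 scaled FPKM in pRB+ libraries, against 20.72 and 16.18 in pRB- libraries (-1.57 ± 0.29, SE; limma, adjusted p = 0.0692, n = 2 per group). MSMO1, a sterol demethylation enzyme, had 9.613 and 14.62 in pRB+ against 42.6 and 29.41 in pRB- libraries (-1.50 ± 0.25, adjusted p = 0.0692), 66.3% lower by the means. FDFT1, squalene synthase, had 27.91 and 50.29 in pRB+ against 113.7 and 90.3 in pRB- libraries (-1.41 ± 0.31, adjusted p = 0.0745). In all 3 genes pRB+ replicate 2 lay nearer to the pRB- libraries than pRB+ replicate 1, without overlap. HMGCS1, a synthase early in the pathway, had 4.722 and 5.731 in pRB+ against 12.48 and 9.114 in pRB- libraries (-0.91). IDI1, an isomerase of the isoprenoid steps, stood at -0.84, the sterol carrier gene STARD4 at -0.76, MVK, mevalonate kinase, at -0.67 and SQLE, squalene epoxidase, at -0.57. The factor gene SREBF2 had 27.8 and 32.25 in pRB+ against 43.04 and 43.22 in pRB- libraries (-0.51). Among the 7 genes that did not meet the rule, TM7SF2, NSDHL, LSS, PMVK, SC5D and SCAP lay between -0.13 and 0.01. The count of 18 was 10 without pRB+ replicate 1 and 16 without pRB+ replicate 2. Fatty acid synthesis genes were closer to 0, with a median of -0.18 and 5 of 15 lower, among them ELOVL5 (-0.31), FADS1 (-0.37) and SCD (-0.32); FASN stood at -0.18, and without pRB- replicate 1 the 5 became 1.

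**Figure D4:**
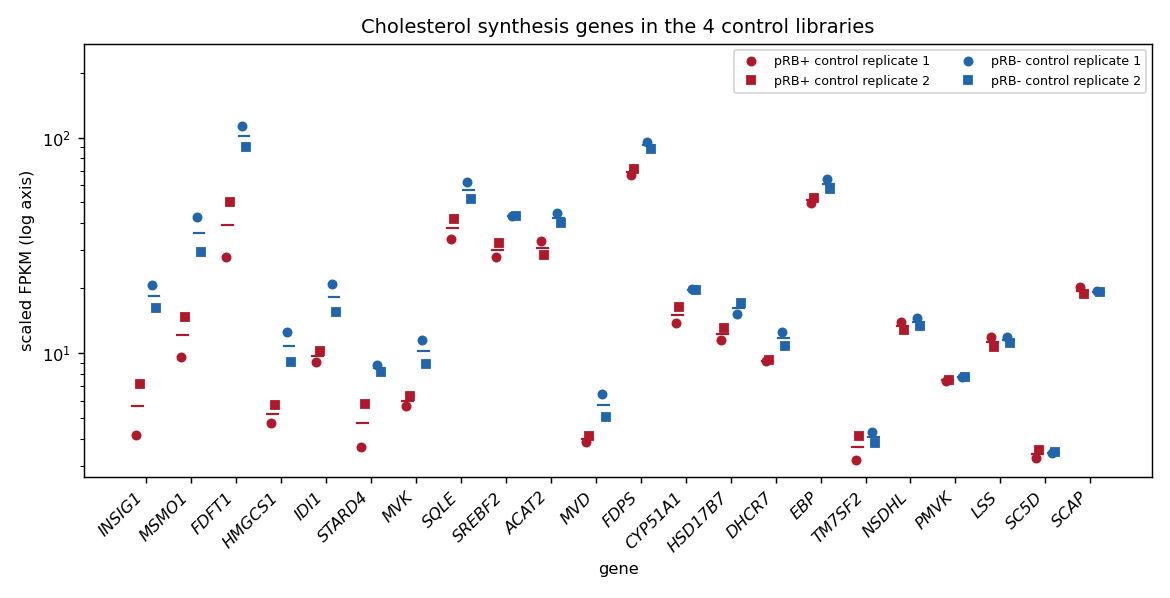
Scaled FPKM (log axis) of 22 of the 25 tested cholesterol synthesis genes in the 4 control libraries, ordered by log2 difference; pRB+ in red left of pRB- in blue, circles replicate 1, squares replicate 2, bars group means. INSIG1, at -1.57, stands at the left end, and the groups overlap or nearly meet at the right end, where SCAP has 0.01.

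The promoters of INSIG1, MSMO1 and HMGCS1 are shown because these genes were among the most different of the list and have a RefSeq window. The CCAAT box, searched as CCAAT on both strands, lay in 15 of 19 cholesterol gene windows (78.9%) and in 21 of 27 mitotic entry windows (77.8%). It lay in 35.9% of all 9431 windows, in 44.5% of those counted lower and in 34.7% of those counted higher. Lists with medians near that of all genes also had high shares. The unfolded protein response and heat shock list had 72.7% (median -0.04), and the ATF4 and tRNA synthetase list 57.7% (median 0.04). The sterol element, searched as TCACNCCAC on both strands, lay in 1 of the 19 (5.26%) and in 0.774% of all windows; no match says only that these letters are not in the window. The stretches come from chr7:155297668-155297752 (plus strand) for INSIG1, chr4:165327545-165327668 (plus strand) for MSMO1 and chr5:43313468-43313607 (minus strand) for HMGCS1 (RefSeq, GRCh38.p14); capitals mark CCAAT or its reverse complement ATTGG.

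INSIG1: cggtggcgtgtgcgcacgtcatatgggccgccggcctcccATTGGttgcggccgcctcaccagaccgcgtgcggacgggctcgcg

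MSMO1: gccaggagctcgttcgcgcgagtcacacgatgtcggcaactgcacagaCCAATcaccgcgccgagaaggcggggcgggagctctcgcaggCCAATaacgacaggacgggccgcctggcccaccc

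HMGCS1: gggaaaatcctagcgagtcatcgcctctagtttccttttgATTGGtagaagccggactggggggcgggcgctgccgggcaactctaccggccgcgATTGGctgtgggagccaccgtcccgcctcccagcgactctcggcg

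Genes of ribosome assembly in the nucleolus lay on the other side. Of 49 genes 18 were higher in pRB+ cells (36.7%) and 2 lower, with a median of 0.21, and 42 lay above 0. UTP14A, of the small subunit processome, had 16.28 and 13.97 in pRB+ against 7.292 and 8.646 in pRB- libraries (0.85 ± 0.12, SE; limma, adjusted p = 0.0692, n = 2 per group). NOP58, a core protein of box C/D ribonucleoproteins, had 66.31 and 54.79 in pRB+ against 35.68 and 38.62 in pRB- libraries (0.68 ± 0.12, adjusted p = 0.0692). PNO1, of small subunit assembly, stood at 0.53, RRS1, of large subunit assembly, at 0.44 and POLR1B, a subunit of RNA polymerase I, at 0.42. TAF1D, of the polymerase I initiation factor, had 18.98 and 24.95 in pRB+ against 34.37 and 30.02 in pRB- libraries (-0.54). This list followed pRB+ replicate 1 most: against the mean of the 4 control libraries its median was 0.23 and -0.01 in the pRB+ libraries and -0.08 and -0.14 in the pRB- libraries. The median of 0.21 was 0.10 without pRB+ replicate 1, 0.34 without pRB+ replicate 2 and 0.20 without pRB- replicate 2. The count of 18 changed in these fits too, and in some of them the count over all genes changed as well. With FPKM as deposited the median turned to -0.14, where that of all genes was -0.33. MYC itself, a known driver of these genes, had 420.7 and 348.3 in pRB+ and 309 and 306.7 in pRB- libraries (0.31 ± 0.14, adjusted p = 0.24). Among its network, the partner gene MAX (0.59) and the antagonist genes MXD4 (0.53) and MNT (0.29) were counted higher, and MXD3 (-0.77), MYCL (-0.45) and MYCN (-0.33) lower. Without pRB+ replicate 1 there was 1 lower.

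The structural genes of translation and respiration had counts near or under the background shares, with more respiration genes lower when some libraries were left out. Most members still had small differences below 0. These were 79 of 84 cytoplasmic ribosomal protein genes, 49 of 76 mitochondrial ribosomal protein genes and 68 of 82 oxidative phosphorylation genes. Of 84 tested cytoplasmic ribosomal protein genes 2 were lower and 0 higher, with a median of -0.11; the 2 were the variant genes RPL22L1 (-0.51) and RPL39L (-0.28). Doxycycline is known to inhibit mitochondrial translation. Of 76 mitochondrial ribosomal protein genes 6 were lower and 3 higher, with a median of -0.05, and of 82 nuclear genes of oxidative phosphorylation 9 were lower and 0 higher, with a median of -0.10. MRPL36 (0.43) and MRPL54 (-0.40) were the members of the first list with the smallest p, and ATP5SL (-0.42), SDHA (-0.25) and UQCRC1 (-0.31) those of the second. With only the 4 control libraries in the fit 12 of the 84 cytoplasmic ribosomal genes, 9 of the 76 mitochondrial ribosomal genes and 19 of the 82 oxidative phosphorylation genes were lower, where 1688 of 11908 genes were. Without 1 or the other pRB- AZD2811 library the 9 were 12 and 13. The 9 were 1 without pRB- replicate 1, 3 without pRB- replicate 2 and 5 without pRB+ replicate 2, and the 6 were 1 or 2 without any 1 of the 4 control libraries, and the 3 were 1 without pRB+ replicate 1 or pRB- replicate 1. Genes encoded in the mitochondrion were not analysed here. None of 23 glycolysis genes met the rule (limma, 0 with an unadjusted p under 0.05), and their median was 0.06. In the ATF4 and tRNA synthetase list 2 of 33 were lower, ATF3 (-0.79) and AARS (-0.39), and 2 higher, WARS (0.27) and CBS (0.26); without pRB- replicate 1 the lower count was 0 and the higher 1, without pRB+ replicate 1 both were 0, without pRB- replicate 2 there were 3 lower and 0 higher, without pRB+ replicate 2 there were 3 lower and 5 higher, and without either pRB+ AZD2811 replicate there were 5 lower.

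Genes known as p53 targets were mixed, with 8 of 24 lower, 2 higher and a median of -0.10. GADD45A, a stress gene, had 41.75 and 51.62 in pRB+ against 97.7 and 71.03 in pRB- libraries (-0.83 ± 0.19, SE; limma, adjusted p = 0.0811, n = 2 per group). CCNG1, cyclin G1, had 46.09 and 54.54 in pRB+ against 81 and 80.61 in pRB- libraries (-0.68), DDB2, of nucleotide excision repair, stood at -0.67, and BBC3, which encodes the BH3 protein PUMA, at -0.71. The metabolic gene C12orf5 (also called TIGAR) had 1.922 and 1.528 in pRB+ against 0.7836 and 0.9082 in pRB- libraries (0.56). The lower count was 5 without pRB- replicate 1. Of 11 tested BCL2 family genes 2 were lower, BBC3 and PMAIP1 (-0.34). SAT1, which acetylates polyamines, had 5.421 and 11.75 in pRB+ against 21.18 and 16.53 in pRB- libraries (-1.12).

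Neuronal and neuroendocrine genes differed in both directions. In pRB+ cells 6 of 20 tested transcription factors were lower (30.0%), beside 11% of all genes. Of granule and synapse genes 7 of 40 were higher (17.5%), beside 10.2% of all genes. CHGA, chromogranin A of secretory granules, had 66.35 and 64.33 in pRB+ against 43.05 and 41.8 in pRB- libraries (0.61 ± 0.12, SE; limma, adjusted p = 0.0692, n = 2 per group). GAP43, of growth cones, had 6.867 and 8.168 in pRB+ against 4.304 and 5.125 in pRB- libraries (0.58 ± 0.11, adjusted p = 0.0692), SNAP25, of vesicle fusion, stood at 0.60, and INA, an intermediate filament gene, at 0.41. Of 40 tested granule and synapse genes 7 were higher, L1CAM, SCG5 and MAP2 being the others, and 2 lower, with a median of 0.04; without pRB+ replicate 2 or pRB- replicate 1 there were 4 higher, and without pRB+ replicate 2 there were 4 lower. PCSK1, a prohormone protease, was 1 of the 2 lower genes (-0.43). Of 20 tested neuroendocrine and neural transcription factors 6 were lower and 2 higher, with a median of -0.19. ZNF804A had 2.589 and 1.691 in pRB+ against 0.313 and 0.5803 in pRB- libraries (1.11) and with SCRT1 made up the 2 higher. NEUROD4 had 5.05 and 7.57 in pRB+ against 10.46 and 12.11 in pRB- libraries (-0.77), and HES6, LHX2, OTX2, NEUROD1 and ONECUT2 stood between -0.55 and -0.33. The 6 were 3 without pRB+ replicate 2 and 2 without pRB- replicate 1. In the Notch list 3 of 19 were higher (15.8%) and 2 lower (10.5%), not far from the 10.2% and 11% of all genes. DLL3, an inhibitory ligand studied in this cancer, had 56.28 and 45.24 in pRB+ against 41.98 and 36.26 in pRB- libraries (0.36), and the ligand gene JAG2 stood at 0.44 and the target gene HES1 at 0.55.

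The same comparison in cells given AZD2811, made with 4 other libraries, had medians of the same sign for mitotic entry, licensing, nucleolar and cholesterol genes. RB1 rose by 2.04 there (adjusted p = 0.000139) and was the 1 gene past the adjusted threshold (limma). By the looser rule 790 genes were higher (6.76%) and 836 lower (7.15%). Mitotic entry genes had a median of -0.32 under AZD2811 and -0.33 in control cells, with 26 of 36 lower under AZD2811 and 24 in control cells. Licensing genes had medians of -0.15 under AZD2811 and -0.18 in control cells, with 8 of 28 lower under AZD2811 and 12 in control cells. Nucleolar genes had a median of 0.21 in both, with 22 of 49 higher under AZD2811 and 18 in control cells. Cholesterol genes had medians of -0.32 under AZD2811 and -0.42 in control cells, with 13 of 25 lower under AZD2811 and 18 in control cells. The log2 difference of INSIG1 was -0.92 under AZD2811 and -1.57 in control cells, that of MSMO1 was -0.84 under AZD2811 and -1.50 in control cells, and that of CDT1 was -0.57 under AZD2811 and -0.88 in control cells. Whether the differences depend on AZD2811 was not tested here. Both comparisons came from 1 fit with 1 estimate of spread and were known from earlier results of these data, so neither is independent support for the other.

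**Figure D5:**
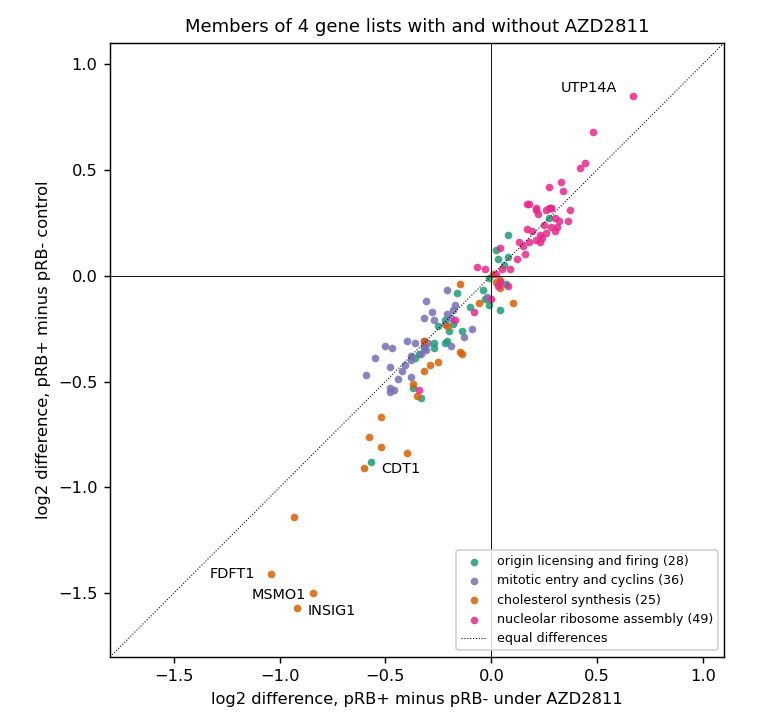
Log2 difference of pRB+ minus pRB- cells in control cells (vertical) against that under AZD2811 (horizontal) for the members of 4 gene lists; each point is 1 gene and the dotted line marks equal differences. Cholesterol genes such as INSIG1, MSMO1 and FDFT1 lie below the line, with control values of -1.57, -1.50 and -1.41.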

How the data were processed

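RNA-seq of 8 NCI-H82 libraries was deposited as 1 table of FPKM, 1 value per gene and library, as the values show; the authors' labels describe a stranded total RNA protocol. STAR 2.5.1b, Cufflinks 2.2.1 and hg19 are named in the submitters' processing notes, without roles, and the gene annotation is not given in the sources used here. Spreadsheet dates stood in place of gene names in 28 rows, which were dropped, and 22531 of the remaining 25337 names match a current symbol.

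FPKM were divided by a factor per library, 0.454 to 1.33, the trimmed mean log ratio against a geometric mean profile, after trimming the outer 30% of the ratios and 5% of the levels on either side. Genes averaging at least 1 scaled FPKM were tested with limma 3.58.1 in R 4.3.3 on log2(scaled FPKM + 1), with an intensity trend, 4 group means over all 8 libraries, 4 residual degrees of freedom and Benjamini-Hochberg adjusted p under 0.05. The series names its replicates biological, with no word on separate cultures, so a p-value reflects only how far these libraries spread, which may be technical. The series gives its replicates 2 code names whose meaning is not stated, so whether equal numbers share a day or culture is not known, and the numbers were not taken as pairs. Depth was estimated from the steps of low values in 1516 single-transcript genes at 22900000 to 33000000 fragments; counting error at 1 FPKM in 1500 nucleotides is 14.2% to 17.1%, counting only. The fit was tested on simulated data for the 11693 genes.

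The comparison, its lists and its motifs were chosen with earlier results of these data known. Of 39 lists, 38 had tested members. Genes named by rule were RB1, the 12 higher and 12 lower with the smallest p (mean at least 5, groups apart), the 6 higher and 6 lower with the largest difference (p under 0.01), placeholder names skipped, and up to 4 members per list by p; a few such genes are not reported here. Other members, the genes shown with promoters, and those called out as exceptions were chosen after their values were seen. Promoter sequences are RefSeq, GRCh38.p14, and no file coordinates were used. Figures used Python 3.11.15 and matplotlib 3.10.9. Alternatives were median-ratio scaling, no scaling, filters, a pseudocount, a replicate block, only the 4 control libraries, small RNA genes kept, a library type term and leaving out each library in turn. A count test was not run, since the table holds no counts.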

Additional observations from a re-analysis of the deposited data

How the results depend on the processing

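RB1 was 2.15 to 2.27 with each library left out and missed the threshold with FPKM as deposited (2.04, adjusted p = 0.192); it was not in the fit of genes with a mean of at least 5. The count past the adjusted threshold, 1, was 5 with FPKM as deposited, 2 with no filter, 0 with a mean of at least 5 (limma; 1700 with p under 0.05), 2 with a pseudocount of 0.1, 8 with small RNA genes kept, 577 with only the 4 control libraries and 1 to 211 with each library left out; the cause was not tested. With the replicate block it was 160 (83 higher, 77 lower), 154 of them among the 577; same-numbered control libraries had deviations that correlated at 0.199 across genes, but not every pair of groups exceeded 0.1, so the numbers were not taken as pairs, and a shared day or culture was not tested. The looser counts were 6 higher and 27 lower with FPKM as deposited, 701 higher with a mean of at least 5, and 482 to 1327 higher and 554 to 1430 lower with each library left out.

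With FPKM as deposited the list medians were -0.53 (licensing), -0.53 (fork), -0.68 (mitotic entry), -0.59 (centromere), -0.77 (cholesterol) and -0.14 (nucleolar, a change of sign), against -0.33 for all genes, and the counts were 0, 0, 0, 0, 4 and 0. With a library type term the fork median was -0.14 and the centromere median -0.24, and with a pseudocount of 0.1 that of the centromere list was -0.29. With each library left out the medians and counts ran from -0.24 to -0.15 and 7 to 13 (licensing), -0.22 to -0.15 and 9 to 14 (fork), -0.37 to -0.30 and 18 to 25 (mitotic entry), -0.27 to -0.24 and 8 to 15 (centromere), -0.51 to -0.37 and 10 to 18 (cholesterol) and 0.10 to 0.34 and 5 to 29 (nucleolar). Of 2453 values of 145 named genes under an alternative, 2184 kept direction and side of the threshold, 265 passed it and 4 changed sign, all 4 with FPKM as deposited: MRPL57 (-0.07), WARS (-0.07), CBS (-0.10) and PSMC4 (-0.15).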

Other observations

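Several other gene groups were read by the same rule. In the fit of all 8 libraries the background was 10.2% of all genes higher and 11% lower, and other fits have other shares. Of 9 tested interferon response genes 4 were lower in pRB+ cells, IFITM3 (-0.45), ISG15 (-0.64), BST2 (-0.45) and IRF7 (-0.41), and 1 higher, IRF9 (0.34); the lower count was 2 without pRB- replicate 1 and the higher count 0 without any 1 of the 4 control libraries. Of 5 tested genes of MHC class I presentation 0 met the rule, and B2M, the light chain, had 53.69 and 53 scaled FPKM in pRB+ and 58.12 and 60.27 in pRB- libraries. Of 17 tested matrix and adhesion genes 6 were lower and 0 higher. FN1, fibronectin, had 2.624 and 3.163 in pRB+ against 4.562 and 4.842 in pRB- libraries (-0.55), and VIM, vimentin, had 27.1 and 28.53 in pRB+ against 43.98 and 34.19 in pRB- libraries (-0.47); the 6 were 3 without pRB+ replicate 1.

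Of 17 tested immediate early genes 5 were lower, among them JUN (-1.27), KLF6 (-0.52) and JUND (-0.49), and 2 higher, JUNB (0.37) and DUSP5 (0.40); the lower count was 1 without pRB- replicate 1 and 2 without pRB+ replicate 1, and the higher count 0 without pRB+ replicate 1 or pRB- replicate 2. Of 25 APC/C and SCF genes 6 were lower, CDC20, UBE2C and the inhibitor gene FBXO5 (-0.41) among them, and 3 were higher, CDC16 (0.55), CUL1 (0.35) and CDC27 (0.34); the lower count was 3 without pRB- replicate 1, and the higher count 1 without pRB+ replicate 1 and 5 without pRB+ replicate 2 or either pRB- AZD2811 replicate. Of 39 tested proteasome genes 2 were higher, PSME3 (0.47) and PSMC4 (0.21), and without pRB+ replicate 1 there were 0. In the unfolded protein response and heat shock list HERPUD1 (-0.51), DNAJB1, MANF and XBP1 were lower and HSPH1 (0.47) higher of 22 tested; the lower count was 0 without pRB- replicate 1, 1 without pRB+ replicate 1 and 2 without pRB+ replicate 2, and HSPA5, the main chaperone of the endoplasmic reticulum, had 88.98 and 95.79 in pRB+ and 170.9 and 97.68 in pRB- libraries. In the Hippo list AMOTL2 (0.39) was the 1 higher and STK3 (-0.25) the 1 lower of 17.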
